A study of Mus musculus with 68 samples.

Results

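The control motor neurons of a gain-of-function screen came in 2 reporter versions, and the YFP arrays of the CD14 version are set here against the YFP arrays of the CD2 version. Membership followed the labels alone: 4 arrays labelled YFP with the CD14 reporter (2 in batch 6 and 2 in batch 7) and 4 labelled YFP with the CD2 reporter (1 in batch 1, 1 in batch 2 and 2 in batch 3), which makes 8 of 68 arrays in all. The screen looked for genes that give motor neurons a phrenic identity, and each line was judged against YFP controls. All cells were C57/BL6 mouse embryonic stem cells, grown as embryoid bodies. They received retinoic acid and Smoothened agonist on day 2 and were dissociated on day 5. Motor neurons were then isolated with magnetic beads through a surface protein, CD14 or CD2, that a motor neuron-specific transgene put on them. Every YFP culture, of either reporter, then received doxycycline to induce YFP, a fluorescent protein with no known function in motor neurons, and stayed on matrigel for 30 h before about 500 ng of total RNA was labelled. Separate arrays are labelled as parental, E3 with CD14 and H4 with CD2. The labels do not say whether each reporter is 1 clone, and reporter and cell line cannot be told apart. The labels give neither the promoter of the reporter transgene nor whether replicates were separate cultures, so p-values measure the spread between these arrays, which may be technical.

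Motor neurons are the spinal neurons that drive muscle. They arise from Olig2-positive progenitors of the ventral neural tube under retinoic acid and Sonic hedgehog, leave the cell cycle, and are then held to their fate by the transcription factors Mnx1, Isl1, Isl2 and Lhx3, which switch on the genes for making and packaging acetylcholine. Embryonic stem cell lines of one strain can differ in clonal features that outlast differentiation, among them the state of imprinted genes, which are expressed from 1 parental copy. One large imprinted domain, between Dlk1 and Dio3 on mouse chromosome 12, holds a long cluster of miRNA genes that are expressed from the maternal copy in brain and embryo.

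Values are log2 intensities, so a difference of 1 is a doubling. A gene was called where limma's Benjamini-Hochberg adjusted p, with batch as a random block, was under 0.05 and the 4 CD14 values did not overlap the 4 CD2 values. The degrees of freedom behind p and SE count the 8 arrays, although these came from only 5 batches. No batch held YFP arrays of both reporters, so reporter and batch cannot be told apart in this comparison, and the arrays of batch 6, which alone held both reporters, are given beside it.

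MiRNA genes were among the called genes in both directions, and the mature sequences that RefSeq (GRCm38.p6) gives for all 7 are shown because these short products are what the genes make. The array reads transcripts of the miRNA genes from total RNA and does not separate precursor from mature forms. Capitals mark the seed, bases 2 to 8, by which a miRNA recognises targets. The 4 genes higher in CD14 cells lie on the plus strand of chromosome 12, between Dlk1 and Dio3.
miR-382-5p: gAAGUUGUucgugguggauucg
miR-382-3p: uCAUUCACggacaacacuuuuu
miR-369-5p: aGAUCGACcguguuauauucgc
miR-369-3p: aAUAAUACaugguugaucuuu
miR-539-5p: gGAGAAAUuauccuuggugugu
miR-543-5p: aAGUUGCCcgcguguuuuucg
miR-543-3p: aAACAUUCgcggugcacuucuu
The 3 genes lower in CD14 cells lie on the minus strands of chromosomes X (Mir384), 16 (Mir690) and 10 (Mir331).
miR-384-5p: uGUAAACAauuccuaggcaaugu
miR-384-3p: aUUCCUAGaaauuguucacaau
miR-690: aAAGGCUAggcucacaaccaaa
miR-331-5p: cUAGGUAUggucccagggaucc
miR-331-3p: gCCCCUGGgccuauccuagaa
The 12 mature sequences carry 12 different seeds, so no 2 of them share a seed.

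The arrays were alike in overall level, with medians of 8.17 to 8.31 in CD14 cells and 8.18 to 8.28 in CD2 cells. Across genes, 2 CD14 arrays of 1 batch correlated at 0.9969 to 0.9972 and CD14 arrays of different batches at 0.9847 to 0.9893. The 2 CD2 arrays of batch 3 correlated at 0.9869, CD2 arrays of different batches at 0.9784 to 0.9907, and arrays of different reporters at 0.9742 to 0.9894. The range between reporters thus overlapped that between batches of 1 reporter. The reporter genes themselves gave no check: the mouse Cd14 probe set read 6.28 to 6.50 in CD14 cells and 6.42 to 6.81 in CD2 cells, and the mouse Cd2 probe set 6.62 to 6.83 in CD14 cells and 6.64 to 6.81 in CD2 cells, and the labels do not give the species of the transgenes.

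Most motor neuron markers read above the array medians with either reporter, but Lhx3 read below them. Slc18a3, the vesicular transporter that loads acetylcholine, read 12.84 to 13.24 in CD14 cells and 12.80 to 13.17 in CD2 cells. Isl1 read 12.74 to 12.97 in CD14 cells and 12.46 to 12.89 in CD2 cells. Mnx1 read 9.06 to 9.31 in CD14 cells and 8.51 to 9.37 in CD2 cells, and Lhx3 7.67 to 7.87 in CD14 cells and 7.69 to 7.86 in CD2 cells. These 4 genes overlapped between the reporters and none was called, with adjusted p from 0.671 to 0.988. Of 16 generic motor neuron genes measured, 1 was called, Isl2, where 0.416% of all genes were called. The median difference of the 16 was 0.10, beside -0.02 over all 19938 genes. Chat, which makes acetylcholine, did not overlap, at 9.96 to 10.09 in CD14 cells and 10.10 to 10.41 in CD2 cells, but by 0.003 only, and its adjusted p was 0.387.

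Genes of other cell types and states gave no call, where 0.416% of all genes were called. None of 20 neural progenitor and radial glia genes was called, but 4 lay below CD2 without overlap and 1 above, where 6.21% and 7.99% of all genes did. Of 12 ventral interneuron genes, 3 lay below CD2 without overlap and none was called. Olig2, the progenitor factor, read 8.28 to 8.93 in CD14 cells and 9.08 to 9.34 in CD2 cells without passing the test (difference -0.59 ± 0.17, SE, adjusted p = 0.157). None of 21 cell cycle genes was called, and their mean level ran from 9.44 to 10.63 in CD14 cells and from 9.22 to 10.62 in CD2 cells. Mki67, made in dividing cells, was lowest in the CD14 arrays of batch 6 (9.44 and 9.26, against 10.61 and 10.60 in batch 7), while the CD2 arrays read 9.55 to 11.13. None of the lists for floor plate, interneurons, pluripotency, neural crest, glia, mesoderm, epithelium or blood held a called gene. In bulk RNA, fewer cells of a type and less RNA per cell cannot be told apart. The positional genes Hoxa5 (9.10 to 9.58 in CD14 cells, 9.06 to 9.97 in CD2 cells) and Hoxc5 (8.48 to 9.72 in CD14 cells, 8.41 to 10.36 in CD2 cells) overlapped, as did Pou3f1, a candidate of the screen, at 8.31 to 8.48 in CD14 cells and 8.39 to 8.69 in CD2 cells. None of 12 phrenic motor neuron genes was called.

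Across all 19938 genes, 83 were called (0.416%). Of these, 35 were higher (0.176%) and 48 lower (0.241%) in CD14 cells, with adjusted p from 8.1e-06 to 0.0497. Without regard to p, the values did not overlap for 1594 genes in the higher direction (7.99%) and 1238 in the lower (6.21%), and 2673 genes had an unadjusted p under 0.05. The split of the calls depended on scaling: it was 34 higher and 85 lower after quantile normalization of the 8 arrays alone, and 6 higher and 4 lower after centring each array on its median. The treatment of batch decided the number: limma called 687 genes with no block for batch, 1 gene, Nxf3, on batch means, and none with fixed batch terms over all 68 arrays, where 2035 genes had an unadjusted p under 0.05. The number also rested on single arrays. Leaving out 1 array at a time gave between 1 and 69 called genes, and only Nxf3 was called in all 8 of these fits. The lowest counts came without the first batch 3 array of CD2 cells (1 gene) and without the first batch 7 array of CD14 cells (3 genes). Leaving out the batch 1 array of CD2 cells gave 69 genes, and each of the other 5 arrays left out gave 4 to 9.

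**Figure D1:**
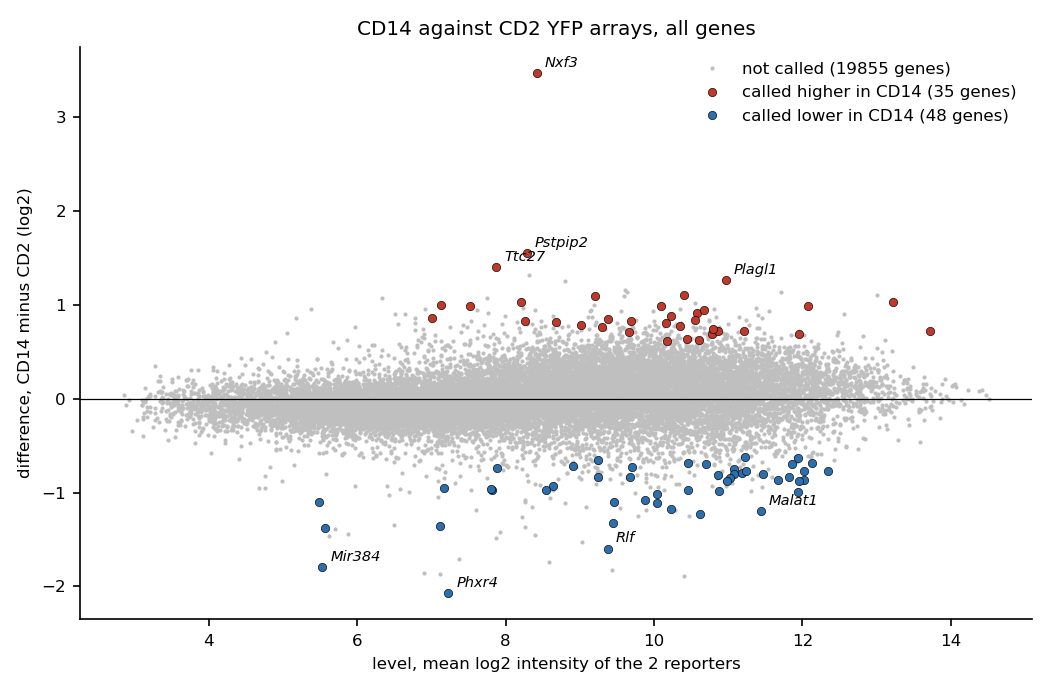
Difference of each gene (vertical axis, CD14 minus CD2, log2) against its mean log2 intensity over both reporters (horizontal axis). Red points are the 35 genes called higher and blue points the 48 called lower in CD14 cells, and grey points are the genes not called. Nxf3, at 3.47, stands apart from every other gene.

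Nxf3 showed the largest difference of the comparison. This X-linked gene belongs to the family of nuclear RNA export factors. It read 9.93 and 9.89 in CD14 cells of batch 6 and 10.28 and 10.44 in batch 7, against 6.57, 6.46, 6.94 and 6.83 in CD2 cells. The lowest CD14 value lay 2.96 above the highest CD2 value, a gap far wider than the spread within either group (SD 0.27 in CD14 cells and 0.22 in CD2 cells, n = 4 each). The difference was 3.47 ± 0.17 (SE), or 11.1-fold, with an adjusted p of 8.1e-06. With fixed batch terms over all arrays of the series, the Nxf3 difference was 1.17 ± 0.84 (SE), and the gene was not called. Its size thus depended on how batch was treated.

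Among the other genes that rose, Pstpip2 and Ttc27 had the largest differences. Pstpip2, an adaptor that binds curved membrane and actin regulators, read 8.95, 8.74, 9.24 and 9.26 in CD14 cells and 7.66, 7.02, 7.78 and 7.65 in CD2 cells, a difference of 1.55 ± 0.20 (SE, adjusted p = 0.0215). Ttc27, a tetratricopeptide repeat protein, read 8.25, 8.42, 8.77 and 8.80 in CD14 cells and 6.84, 7.27, 7.27 and 7.32 in CD2 cells, a difference of 1.41 ± 0.17 (SE, adjusted p = 0.0201). In both genes all 4 CD14 arrays lay at least 0.93 above the highest CD2 array. Rbm3, a cold-inducible RNA-binding protein, was among the most abundant called genes, at 13.69 to 13.75 in CD14 cells and 12.45 to 12.91 in CD2 cells (difference 1.04 ± 0.13, SE, adjusted p = 0.0215).

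Isl2, the LIM homeodomain factor of newborn motor neurons, rose although its partner genes did not pass the test. It read 12.50, 12.59, 12.63 and 12.51 in CD14 cells, against 11.34, 11.63, 11.60 and 11.77 in CD2 cells. The difference was 0.99 ± 0.13 (SE), 1.99-fold, with an adjusted p of 0.0274. With fixed batch terms over all 68 arrays it was -0.16 ± 0.38 (SE). The 4 CD14 values lay close together, and all above the CD2 values, as the calling rule required.

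Among 23 imprinted genes measured, 3 were called higher and none lower, where 0.176% and 0.241% of all genes were. Without overlap, 4 lay above CD2 and 2 below, where 7.99% and 6.21% of all genes did. Plagl1, a zinc finger regulator of growth, read 11.67, 11.44, 11.66 and 11.69 in CD14 cells and 10.44, 10.53, 9.83 and 10.46 in CD2 cells (difference 1.27 ± 0.21, SE, adjusted p = 0.0384). Nnat, a small membrane proteolipid of developing neurons, read 14.13, 14.15, 14.02 and 14.04 in CD14 cells and 13.31, 13.40, 13.40 and 13.35 in CD2 cells (difference 0.72 ± 0.11, SE, adjusted p = 0.0345). Impact, a regulator of translation under stress, read 10.98 to 11.31 in CD14 cells and 10.31 to 10.53 in CD2 cells, with an adjusted p of 0.0491. The list as a whole did not move one way: its median difference was -0.02, equal to that of all genes at this precision. Igf2, a fetal growth factor chosen after its values were seen, had the lowest difference of the list, -1.89 ± 0.74, with values of 7.77, 8.23, 10.27 and 11.54 in CD14 cells and 10.90 to 11.99 in CD2 cells. Its values overlapped, batch 6 and batch 7 lay far apart, and it was not called (adjusted p = 0.295).

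The miRNA genes between Dlk1 and Dio3 stood on the higher side in the YFP arrays. Of 40 measured there, 4 were called higher and none lower, where 0.176% and 0.241% of all genes were. Without overlap, 16 lay above CD2 and 1 below, where 7.99% and 6.21% of all genes did. The median difference was 0.40. In batch 6 it was 0.16, beside -0.01 for the other miRNA genes. This domain was picked after its values were seen. The other 251 miRNA genes had a median of -0.18, with none called higher, 3 called lower, and 5 against 48 without overlap. Mir382 read 9.66, 9.82, 9.68 and 9.86 in CD14 cells and 8.59, 8.67, 8.79 and 8.62 in CD2 cells (difference 1.09 ± 0.13, SE, adjusted p = 0.02). Mir369 read 7.42 to 7.89 in CD14 cells and 6.48 to 6.81 in CD2 cells, and Mir539 7.82 to 8.23 in CD14 cells and 6.89 to 7.14 in CD2 cells. Mir543 read 7.29 to 7.58 in CD14 cells and 6.35 to 6.87 in CD2 cells. In each of the 4 the CD14 arrays lay above every CD2 array, as the calling rule required. They did not separate in the Pou3f1 arrays described further on. Mean differences there, CD14 minus CD2, were 1.26 for Mir382, 1.14 for Mir369, 1.07 for Mir539 and 0.85 for Mir543. The CD2 arrays spread widely there, from 6.04 to 10.37 for Mir382. E3 minus H4, with 1 E3 array, was below 0 in all 4: -0.47 for Mir382, -0.16 for Mir369, -0.005 for Mir539 and -0.37 for Mir543. In each of the 4 the E3 value lay within the range of the H4 arrays, as at 8.92 against 8.65 to 10.21 for Mir382. Of the long transcripts of the same domain, Meg3 read 11.78 to 12.16 in CD14 cells and 11.80 to 12.51 in CD2 cells (difference -0.18 ± 0.18, SE). Rian read 8.20 to 8.88 in CD14 cells and 7.77 to 8.37 in CD2 cells (difference 0.36 ± 0.22, SE), near the miRNA median. Neither was called. The small nucleolar RNA genes of the domain had differences of 0.49 to 0.57, and none was called. Among 51 small nucleolar RNA genes measured the median difference was 0.25, in a range of -0.81 to 0.94. Dlk1, the paternally expressed gene at the edge of the domain, had a difference of -0.68 ± 0.27 and was not called (adjusted p = 0.314).

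Among the called genes, Mvk, mevalonate kinase of cholesterol synthesis, read 10.72, 10.60, 10.49 and 10.47 in CD14 cells and 9.15, 9.73, 9.86 and 9.73 in CD2 cells (difference 0.99 ± 0.17, SE, adjusted p = 0.0478). It was the 1 called of 17 cholesterol synthesis genes, where 0.176% of all genes were called higher. The median difference of the 17 was 0.30, and 5 did not overlap in the higher direction (7.99% of all genes) and none in the lower. In batch 6 the list's median was -0.02. Pmm2, the phosphomannomutase that supplies sugar for protein glycosylation, read 10.82 to 11.11 in CD14 cells and 9.62 to 10.33 in CD2 cells (adjusted p = 0.0384). Mpi, which acts just before it on mannose phosphate and was picked after its values were seen, read 11.11 to 11.32 in CD14 cells and 10.32 to 10.58 in CD2 cells (adjusted p = 0.0491). Slc25a38, the mitochondrial carrier that brings in glycine for heme synthesis, read 11.11 to 11.18 in CD14 cells and 10.07 to 10.49 in CD2 cells (adjusted p = 0.0327). With fixed batch terms its difference was 0.30 ± 0.36 (SE) over 68 arrays and -0.10 without 6 of the 9 batch 4 arrays. Akr1b8, an aldo-keto reductase, read 8.43 to 8.98 in CD14 cells and 7.35 to 8.00 in CD2 cells (adjusted p = 0.0491).

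With fixed batch terms over all 68 arrays, 7 of the 48 genes that fell kept a difference below 0. The median over the 48 was 0.37, with a median SE of 0.23. Over the 35 genes that rose it was 0.36, with a median SE of 0.32, so that fit did not set the 2 sets apart. In that fit only the CD2 arrays of Lhx3-induced and Zic1-induced cells, in batches 5 and 6, link the batches of the 2 reporters. Phxr4, Mir384, Mir690, Adam4, Syne2, Kmt2d, Malat1, Fat4, Zbtb20 and Epha5 were among the genes above 0 in that fit. The genes that fell most in the YFP arrays included dim ones. Phxr4 read 6.21, 6.18, 6.12 and 6.33 in CD14 cells, against 8.05, 8.84, 8.14 and 7.94 in CD2 cells. The difference was -2.07 ± 0.21 (SE), 4.20-fold, with an adjusted p of 0.0073. Mir384 read 4.73, 4.62, 4.44 and 4.87 in CD14 cells and 6.95, 6.47, 6.39 and 5.79 in CD2 cells (difference -1.80 ± 0.26, SE, adjusted p = 0.0345). Mir690 read 4.52 to 5.20 in CD14 cells and 6.16 to 6.34 in CD2 cells (adjusted p = 0.0201), and Mir331 7.35 to 7.65 in CD14 cells and 8.15 to 8.38 in CD2 cells (adjusted p = 0.0491). Adam4, of a family of membrane metalloprotease-like proteins, read 6.13 to 6.71 in CD14 cells and 7.57 to 8.00 in CD2 cells (adjusted p = 0.0215). Tpbpa, a placental marker, read 4.86 to 5.09 in CD14 cells and 5.61 to 6.56 in CD2 cells (adjusted p = 0.0497). All of these were separate in the 8 arrays, as the calling rule required. Mir384, Mir690 and Tpbpa sat near the low end of the intensity scale in CD14 cells.

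Rlf, a zinc finger protein known from mouse screens for modifiers of transgene silencing, fell to 8.84, 8.51, 8.59 and 8.35 in CD14 cells, against 10.26, 9.97, 10.65 and 9.84 in CD2 cells. The difference was -1.60 ± 0.25 (SE), or 3.02-fold, with an adjusted p of 0.0371. The highest CD14 array lay 1.00 below the lowest CD2 array.

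Syne2, the giant nesprin that ties the nucleus to the cytoskeleton, read 8.62, 8.82, 8.93 and 8.64 in CD14 cells and 9.73, 9.91, 10.26 and 10.67 in CD2 cells (difference -1.33 ± 0.22, SE, adjusted p = 0.0415). Kmt2d, a histone H3 lysine methyltransferase of enhancers, read 9.84, 9.85, 9.46 and 9.42 in CD14 cells and 10.67, 11.08, 10.74 and 10.75 in CD2 cells (difference -1.17 ± 0.15, SE, adjusted p = 0.0215). Of 5 Kmt2 genes measured, 3 were called lower (Kmt2a, Kmt2c and Kmt2d) and none higher, where 0.241% of all genes were called lower. Of 4 Vps13 genes, which make lipid transfer proteins, 3 were called lower, and all 4 were below CD2 without overlap. The cytoskeletal linkers Macf1 (difference -0.81) and Dst (-0.74) and the membrane anchors Ank2 (-0.87) and Ank3 (-0.69) were called lower as well. These families were picked after their values were seen. Of 22 Pcdhb genes, 12 lay below CD2 without overlap, as 6.21% of all genes did, and 1, Pcdhb15, was called, as 0.241% of all genes were. In batch 6 the median differences were 0.26 for the Pcdhb, 0.15 for the Vps13 and -0.15 for the Kmt2 genes.

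Malat1, the abundant nuclear long noncoding RNA, read 10.57, 10.91, 10.96 and 10.98 in CD14 cells and 11.90, 12.49, 11.84 and 11.84 in CD2 cells (difference -1.20 ± 0.19, SE, adjusted p = 0.0371). It was the 1 called of 11 genes listed as nuclear noncoding RNA and splicing, where 0.241% of all genes were called lower. Of the 11, 3 lay above CD2 without overlap, where 7.99% of all genes did. Stra6, the membrane receptor for vitamin A uptake, read 10.40, 10.29, 9.72 and 9.67 in CD14 cells and 11.46, 11.08, 10.94 and 11.45 in CD2 cells (adjusted p = 0.0491). It was the 1 called of 17 retinoid genes, where 0.241% of all genes were called lower. Fat4, a giant atypical cadherin, read 9.17 to 9.75 in CD14 cells and 10.39 to 10.78 in CD2 cells (adjusted p = 0.0371). Zbtb20, a zinc finger repressor, read 9.24 to 9.51 in CD14 cells and 10.13 to 10.90 in CD2 cells (adjusted p = 0.0448). Of 41 axon guidance genes, 1 was called, the ephrin receptor Epha5, where 0.241% of all genes were called lower. Epha5 read 7.70, 7.53, 7.15 and 6.97 in CD14 cells and 8.19 to 8.38 in CD2 cells (difference -0.97 ± 0.17, SE, adjusted p = 0.0478). A further 9 guidance genes lay below CD2 without overlap and 1 above, with a list median of -0.19, where 6.21% and 7.99% of all genes did so.

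**Figure D2:**
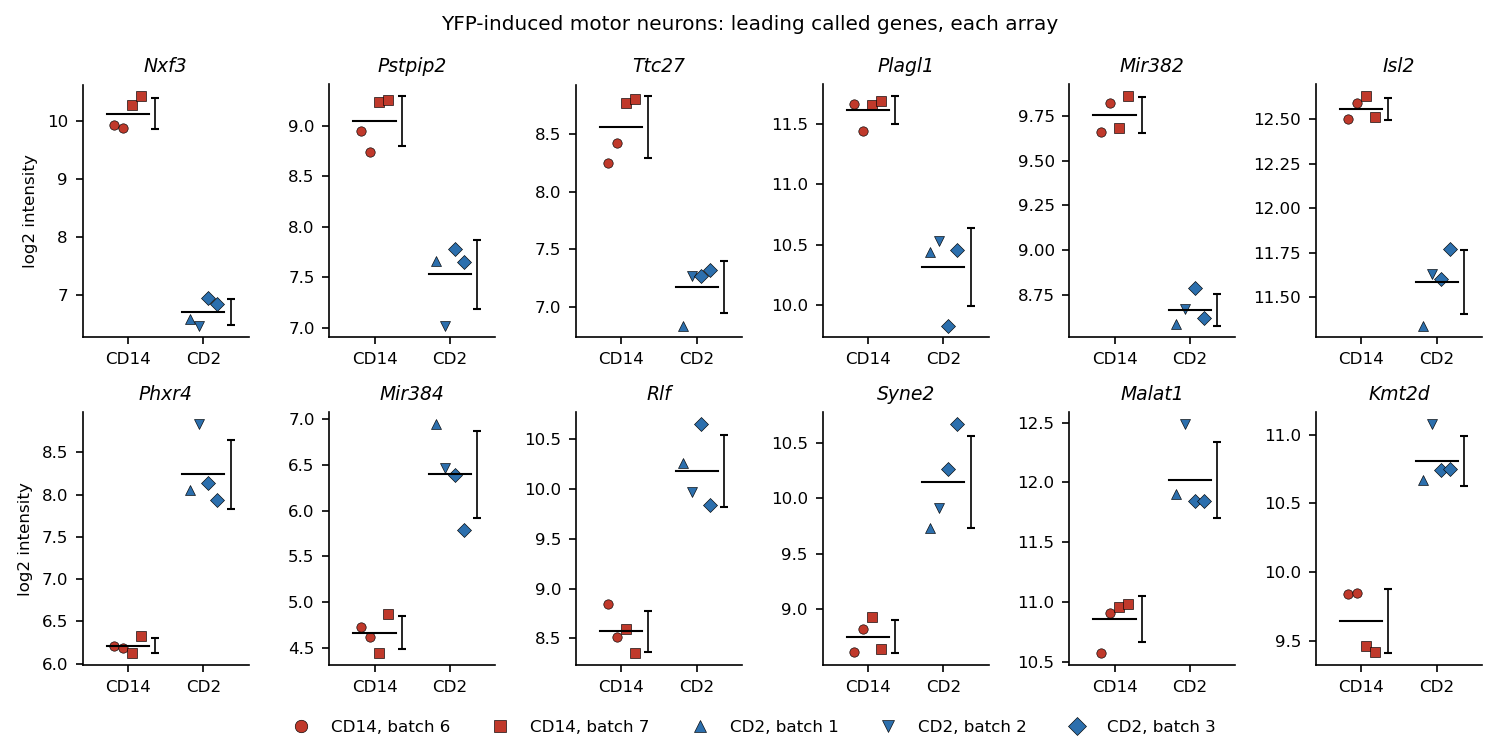
Log2 intensity (vertical axes, a separate scale per gene) of 12 called genes in each of the 8 YFP arrays, CD14 left and CD2 right, with the batch given by the symbol. Horizontal bars are group means and error bars 1 SD (n = 4). The groups do not overlap in any of the 12 panels, which was a condition of calling these genes, and Nxf3 has the widest gap.

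The 48 genes called lower had long RefSeq spans. Their RefSeq (GRCm38.p6) span had a median of 127 kb (47 of 48 matched), against 15.3 kb for the 35 genes that rose and 17.7 kb for all genes. Among 945 genes that span 200 kb or more, 16 were called lower and none higher, while among 3568 genes of 10 to 20 kb, 1 was called lower and 8 higher. Of all genes, 0.241% were called lower and 0.176% higher. The median difference by span was small throughout, from -0.11 for genes of 200 kb or more to 0.03 for genes of 10 to 50 kb, with -0.07 for genes under 5 kb. Over 19916 genes the Spearman correlation of span and difference was 0.002, which is a description across genes of the same 8 arrays.

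**Figure D3:**
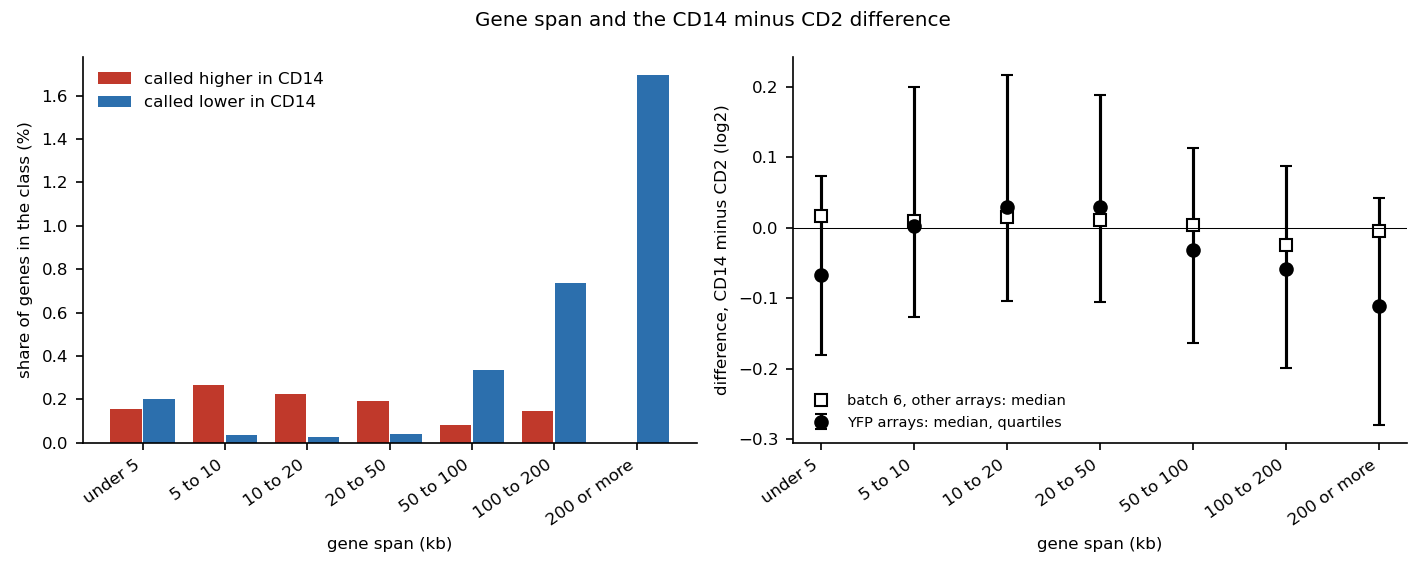
Left, share of genes called higher (red) or lower (blue) in CD14 cells by gene span (horizontal axis, kb). Right, median difference, CD14 minus CD2 (log2), by span in the YFP arrays (filled circles with quartiles) and between the other CD14 arrays and the CD2 arrays of batch 6 (open squares). The lower calls are most frequent at 200 kb or more, where the YFP median is -0.11 and the batch 6 median -0.01.

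The difference between reporters was also read in arrays that share none with the YFP comparison. Pou3f1-induced cells were hybridised for CD14 in batch 6 (2 arrays) and for CD2 in batches 1, 2 and 4 (4 arrays). There, 30 of the 35 genes that rose lay above CD2 without overlap (23.9% of all genes did) and 43 of the 48 that fell lay below (26.6% of all genes). The parental arrays, 1 of E3 in batch 6 against 3 of H4 in batches 2, 4 and 5, separated 28 of the 35 in the higher direction (30.7% of all genes) and 44 of the 48 in the lower (18.7% of all genes). With 1 E3 array this has no replicate check. Both comparisons again set CD14 in batch 6 against CD2 in earlier batches, so reporter and batch cannot be told apart in them either.

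Batch 6 also held 2 CD2 arrays, of Lhx3-induced and Zic1-induced cells, and 11 CD14 arrays other than YFP: the E3 array and 10 arrays of cells induced with Pou3f1 alone, tagged, or with a partner gene. Most of the called genes were not separate there. Of the 35 genes that rose, 5 lay above both CD2 arrays in all 11 CD14 arrays (Ttc27, Zfp637, Cyp4f16, Vma21 and Nnat), where 6.99% of all genes did. Of the 48 that fell, 1 lay below, Rlf, where 4.73% of all genes did, and Vps13c lay above. The median difference of the 35 genes was 0.16 in batch 6, against 0.84 in the YFP arrays, and that of the 48 genes was 0.02, against -0.87. In batch 6 the transgenes differ between the reporters, so transgene and reporter cannot be told apart within it.

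The same CD2 lines had been run in batch 5 too, which shows how these genes read when the reporter stays the same. All 48 genes that fell were lower in batch 6 than in batch 5 in both the Lhx3 and the Zic1 line, as were 23.6% of all genes, with median differences of -0.74 and -0.72. Of the 35 genes that rose, 23 were higher in batch 6 in both lines, where 37.6% of all genes were, with medians of 0.29 and 0.17. Each line had 1 array per batch, and no test was made.

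**Figure D4:**
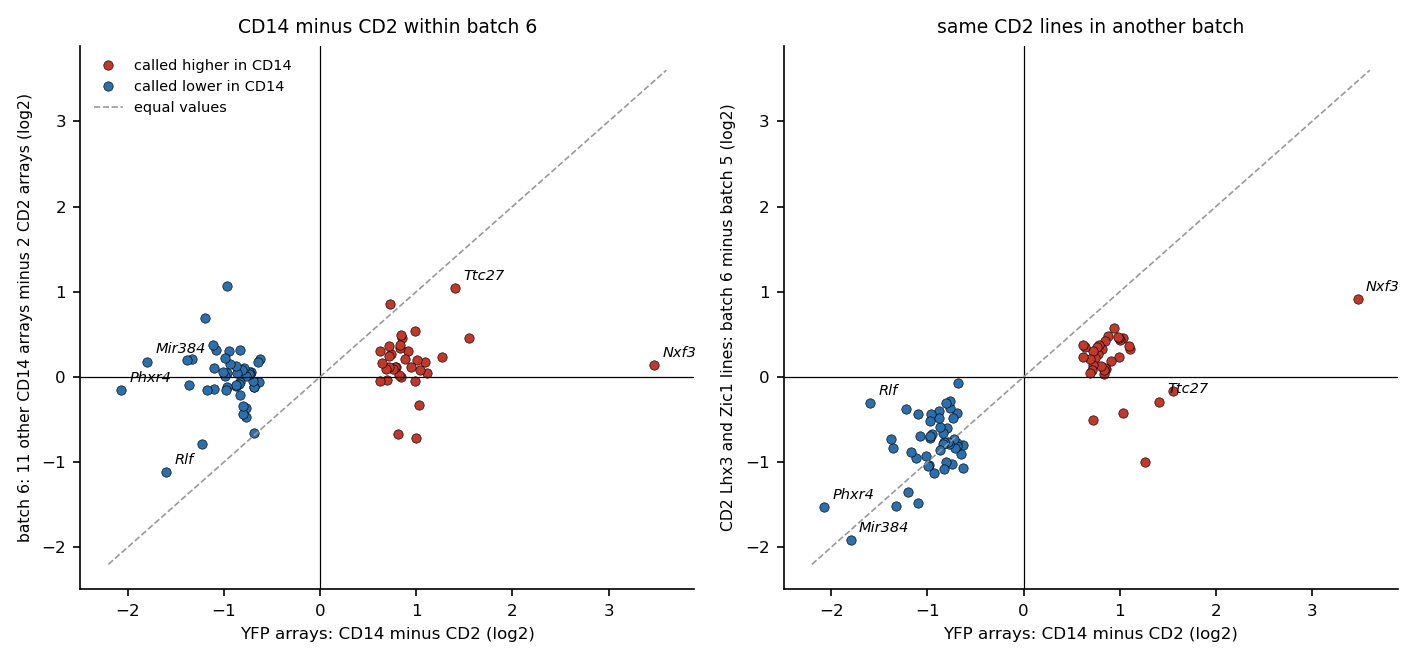
Each point is 1 of the 83 called genes, with its YFP difference, CD14 minus CD2 (log2), on the horizontal axis. Left, the vertical axis gives the difference within batch 6 between 11 other CD14 arrays and 2 CD2 arrays. Most points lie near 0, with Ttc27 and Rlf nearest to equal values among the labelled genes. Right, the vertical axis gives the mean difference of the CD2 Lhx3 and Zic1 lines, batch 6 minus batch 5, where all 48 blue points lie below 0.

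Single genes showed both patterns. Syne2 read 8.53 to 9.29 in the 11 CD14 arrays of batch 6 other than YFP, and 8.72 and 8.65 in the 2 CD2 arrays of that batch, while the same CD2 lines read 10.35 and 10.03 in batch 5. Kmt2d read 9.17 to 10.00 in the 11 CD14 arrays and 9.82 and 9.66 in the 2 CD2 arrays of batch 6, and 10.73 and 10.51 in the CD2 lines of batch 5. Phxr4 read 5.40 to 6.88 in the CD14 arrays and 6.07 and 6.35 in the CD2 arrays of batch 6, and 7.74 in both CD2 lines of batch 5. In these 3 genes CD2 cells of batch 6 read like CD14 cells of batch 6. Nxf3 overlapped in batch 6 and had read lower in batch 5: 8.42 to 9.83 in the 11 CD14 arrays, 8.97 and 9.44 in the 2 CD2 arrays of batch 6, and 8.51 and 8.05 in those lines in batch 5. Over the 45 CD2 arrays of the series Nxf3 ran from 5.26 to 9.44, with batch medians from 6.40 in batch 1 to 9.20 in batch 6, and the 4 CD2 YFP arrays lay in the lower part of that range. Over all 23 CD14 arrays it ran from 8.42 to 10.44.

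Other called genes overlapped widely outside the YFP arrays. Malat1 read 10.36 to 12.25, with a median of 11.96, in the 11 CD14 arrays of batch 6 other than YFP, and 10.66 and 10.81 in the 2 CD2 arrays there. Mir382 read 8.92 to 10.82 in those CD14 arrays and 9.96 and 9.94 in those CD2 arrays. Isl2 read 11.05 to 12.45 in those CD14 arrays, and 13.11 in the Lhx3 and 12.30 in the Zic1 array of CD2. None of the 3 was separate between the reporters within batch 6.

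Across every array of the series, few genes told the reporters apart. Among the arrays that are not YFP, 27 genes had no overlap between 19 CD14 and 41 CD2 arrays (0.135%), and 5 of them were called in the YFP arrays: Ttc27, Zfp637, Vma21 and Nnat on the higher side and Rlf on the lower. With the YFP arrays included, 17 genes remained without overlap between 23 CD14 and 45 CD2 arrays (0.0853%), 16 higher and 1 lower. Ttc27 read 8.22 to 9.17 in all CD14 arrays and 6.75 to 8.11 in all CD2 arrays, and 7.65 and 7.32 in the CD2 arrays of batch 6. Rlf read 7.19 to 9.34 in all CD14 arrays and 9.59 to 10.75 in all CD2 arrays, with 10.22 and 10.01 in the CD2 arrays of batch 6. For Ttc27 and Rlf, CD2 cells of batch 6 thus read like CD2 cells of the other batches. Nnat read 14.02 to 14.29 in all CD14 arrays and 10.72 to 13.93 in all CD2 arrays. Vma21, an assembly factor of the vacuolar proton pump, read 11.16 to 11.51 in all CD14 arrays and 10.16 to 11.09 in all CD2 arrays. These values are of the brightest of its 2 clusters.

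**Figure D5:**
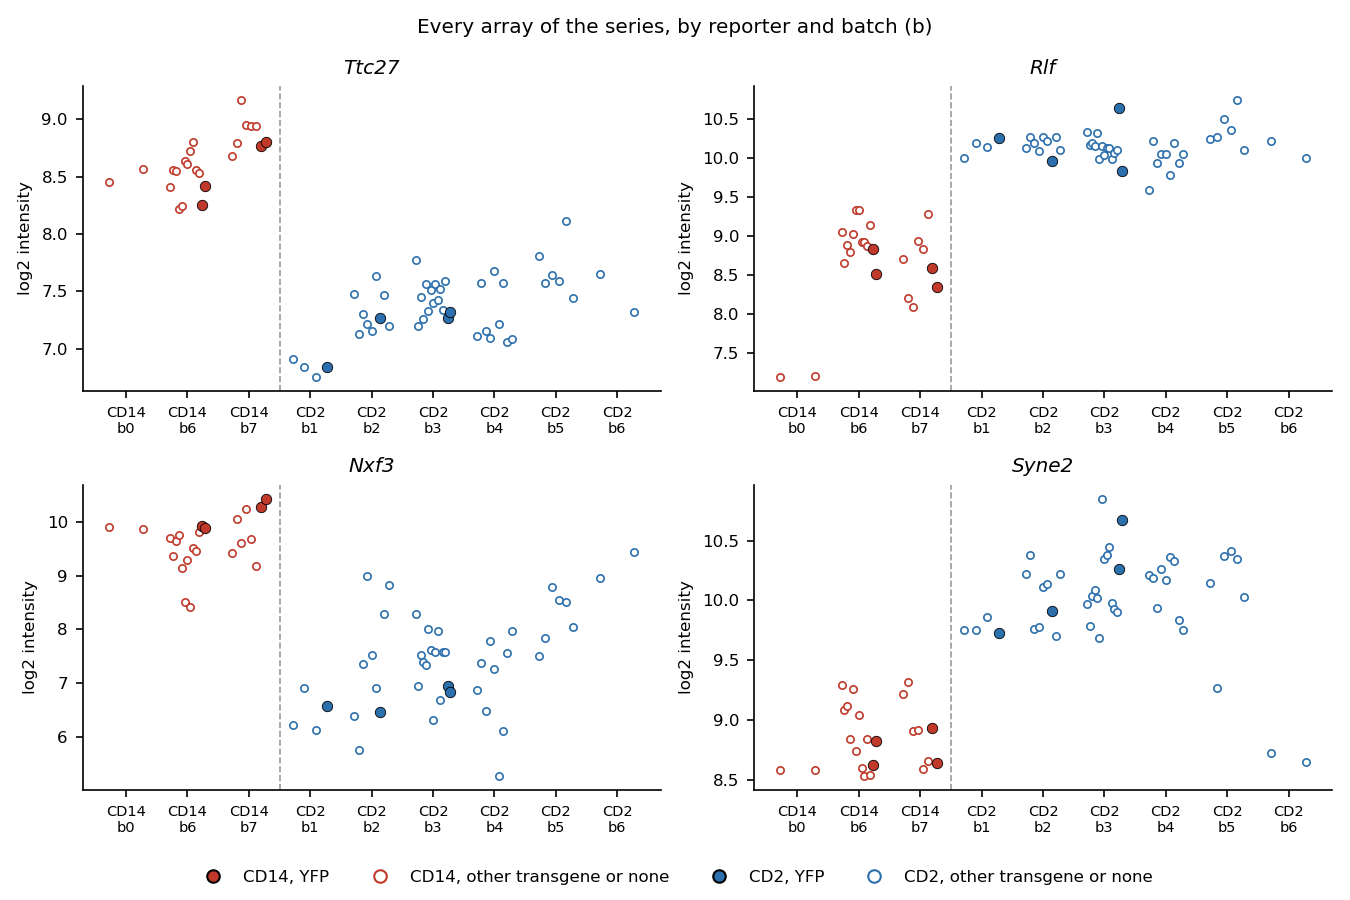
Log2 intensity (vertical axes) of Ttc27, Rlf, Nxf3 and Syne2 in all 68 arrays, by reporter and batch (b, horizontal axis), with CD14 left of the dashed line. Filled points are YFP arrays and open points all others. Ttc27 and Rlf keep the reporters apart in batch 6, whereas Syne2 in the 2 CD2 arrays of batch 6 reads 8.65 and 8.72, within the CD14 range.

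Rlf was the 1 gene below CD2 in every CD14 array, and 2 of the 16 genes above CD2 in every CD14 array lie close to it on chromosome 4 in the RefSeq order (GRCm38.p6). Tmco2 is the measured gene next to Rlf, and Exo5, a DNA exonuclease, the fifth measured gene on that side. Tmco2 read 9.66 to 10.08 in all CD14 arrays and 8.53 to 9.61 in all CD2 arrays. Exo5 read 10.03 to 10.43 in all CD14 arrays and 9.09 to 9.89 in all CD2 arrays. Their YFP differences of 0.67 ± 0.21 and 0.48 ± 0.11 (SE) did not pass the test across all genes (adjusted p = 0.192 and 0.109), although the 8 YFP arrays did not overlap. The genes between them, Smap2, Col9a2 and Zmpste24, overlapped between the reporters in the YFP arrays and in all arrays, and so did the next gene on the other side of Rlf. No neighbour of Ttc27 within 6 measured genes on either side was separate in all arrays, and one of them, the ubiquitin ligase Birc6, was called lower in the YFP arrays (difference -0.62 ± 0.11, SE, adjusted p = 0.0497) but overlapped across all arrays. These neighbours were looked up after the values of Rlf and Ttc27 were known.

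Of 8 genes for X inactivation or on the Y chromosome, none was called and 4 did not overlap in the lower direction, as 6.21% of all genes did. Their median difference was -0.42 in the YFP arrays and 0.09 in batch 6. Other X-linked genes were called in both directions, such as Nxf3 and Mir384. Xist, the RNA that coats an inactive X chromosome, read 6.07 to 6.45 in CD14 cells and 6.58 to 7.04 in CD2 cells (difference -0.63 ± 0.18, SE, adjusted p = 0.157). Kdm5d, a Y-linked histone demethylase, read 6.03 to 6.42 in CD14 cells and 6.74 to 7.35 in CD2 cells (adjusted p = 0.0994). Eif2s3y, a Y-linked translation factor, read 8.58 to 9.59 in CD14 cells and 9.46 to 10.31 in CD2 cells, which overlapped.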

How the data were processed

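The 68 RNA samples were hybridised to Affymetrix mouse arrays. The authors deposited log2 intensities on their own scale, for which the submitters' processing notes name RMA and oligo without a version or an annotation build; RMA's quantile step can hide a shift of most genes. Of 35556 clusters, 21789 had exactly 1 gene symbol in the platform annotation, 1621 several and 12146 none. Each gene took its brightest cluster over all arrays, which left 19938 genes, fitted without a filter on dim genes. Several clusters existed for 999 genes, among them Rbm3 (3), Vma21 (2), Syne2 (4), Kmt2d (2) and Zbtb20 (2). Their other clusters are not shown, and where a cluster lies on the genome was not checked.

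The 8 YFP arrays entered limma 3.58.1 (R 4.3.3) with lmFit and eBayes, CD14 minus CD2, batch as a random block (duplicateCorrelation, consensus correlation 0.464, 6 residual and 4.87 prior degrees of freedom), two-sided, with Benjamini-Hochberg adjustment over all genes. The procedure was tested on simulated data. Named were the 12 largest rises and falls among called genes (unnamed and predicted genes skipped), up to 3 called members of each list, and a set of marker genes. Genes named outside this rule were chosen after their values were seen. Members and lists were chosen with earlier results of these data known. The number of arrays limits the precision. Alternatives covered blocks, normalization, filters, call rules and left-out batches or arrays.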

Additional observations from a re-analysis of the deposited data

Results flagged for a closer look

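Among 82 groups of 4 arrays tested for the named genes, 6 held 1 array far from the other 3, where chance gives about 1 in 20 groups. Ttc27 read 6.84 in the batch 1 array of CD2 cells, against 7.27 to 7.32 in the other CD2 arrays. Plagl1 read 11.44 in the second batch 6 array of CD14 cells, against 11.66 to 11.69 in the other CD14 arrays, and 9.83 in the first batch 3 array of CD2 cells, against 10.44 to 10.53 in the other CD2 arrays. Slc25a38 read 10.49 in the batch 2 array of CD2 cells, against 10.07 to 10.12 in the others. Malat1 read 10.57 in the first batch 6 array of CD14 cells, against 10.91 to 10.98 in the others, and 12.49 in the batch 2 array of CD2 cells, against 11.84 to 11.90 in the others. In all 6 cases the CD14 and CD2 arrays did not overlap, which was a condition of calling these genes.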

How the results depend on the processing

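The count of 83 called genes (35 higher, 48 lower) depended on how batch was treated. It was 687 (408 higher, 279 lower) with no batch block, 417 (304 and 113) with a random block over all 68 arrays, and 1 (Nxf3, higher) on batch means. With fixed batch terms over 68 arrays it was 0 (0 and 0) by limma, with 2035 genes at an unadjusted p under 0.05. It was 1 (1 and 0) without 6 of the 9 batch 4 arrays (Hoxa5, Chd5, Pou3f1, H4 and Arid5b). No overlap alone gave 2832 (1594 and 1238), and a difference of at least 1 as well gave 23 (9 and 14). Median centring gave 10 (6 and 4), quantile normalization once more 119 (34 and 85), and leaving out dim genes 1 (1 and 0). CD14 batch 6 alone gave 2 (1 and 1), CD14 batch 7 alone 103 (57 and 46), CD2 batch 3 alone 8 (5 and 3) and CD2 batches 1 and 2 alone 10 (3 and 7). Leaving out 1 array gave 1 to 69 in all, 1 to 27 higher and 0 to 42 lower. The replicate numbers did not pair the arrays (correlation of deviations -0.035), and the replicate block gave 71 genes (26 and 45), of which 59 were shared. The causes were not tested.

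All 83 genes kept their direction in every setting without fixed batch terms, apart from those not tested once dim genes were left out (69 were tested and kept it). The no-overlap condition fixed this in advance wherever arrays were left out, batches were averaged or the block was dropped. With fixed batch terms 40 of the 83 kept their direction over 68 arrays (33 of the 35 higher, 7 of the 48 lower), and 40 without the 6 batch 4 arrays. Over 68 arrays the median difference was 0.36 for the 35 and 0.37 for the 48. Both sets thus stood above 0 alike, and the 33 kept do not tell them apart. Reversed over 68 arrays, with the value without those batch 4 arrays second where that reversed too, were Isl2 (-0.16, -0.39), Phxr4 (1.18, 1.59), Mir384 (1.29, 0.77), Mir690 (0.90, 0.58), Syne2 (0.53, 0.48), Adam4 (0.85, 0.33), Malat1 (1.53, 1.32), Kmt2d (0.35, 0.26), Fat4 (0.31), Zbtb20 (0.62, 0.02) and Epha5 (0.13, 0.60). Of genes not called, so did Mnx1 (-0.44, -0.06), Isl1 (-0.05, -0.42), Slc18a3 (-0.49, -0.63), Hoxa5 (0.57, 1.06), Olig2 (0.09, 0.28) and Xist (0.37, 0.31). Only without those batch 4 arrays, Slc25a38 (-0.10), Cd2 (0.05), Hoxc5 (0.65) and Mki67 (0.61) reversed. Uncalled genes near 0 reversed elsewhere: Cd2 with quantile normalization (0.04) and CD2 batch 3 alone (0.04), Lhx3 with the random block over 68 arrays (-0.13), and Mki67 with CD14 batch 7 alone (0.13). Slc18a3 did so with no block (-0.01), the random block (-0.09), quantile normalization (-0.07), median centring (-0.01), CD14 batch 7 alone (-0.16), CD2 batch 3 alone (-0.11) and single arrays left out (-0.07 to 0.04). Hoxa5 did so with CD2 batches 1 and 2 alone (0.15) and single arrays left out (-0.25 to 0.02), and Hoxc5 on batch means (0.04), with CD14 batch 7 alone (0.37), CD2 batches 1 and 2 alone (0.52) and single arrays left out (-0.40 to 0.16).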
